A study of Mus musculus with 6 samples.

Results

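The 45 genes described here encode proteins of the cornified envelope and its neighbours in the epidermal differentiation complex, a cluster on mouse chromosome 3. They were taken by name from the deposited table: protein-coding genes of chromosome 3 whose symbol starts with Lce or Sprr, together with Lor, Ivl, Crct1, Kprp, Crnn, Flg2, Hrnr, Rptn, Tchh and Tchhl1. This gave 45 of the 35275 genes in the table, 20 of them Lce, 15 Sprr and 10 others. Another 2 genes match by name but are not typed as protein-coding there, Sprr2g and Flg, and are given only as values. The measurements are bulk RNA sequencing of whole tongue: 3 libraries from Aim2 KO mice (Aim2-/-) and 3 from wild type (WT) mice. All 6 libraries come from mice given 4NQO at 100 µg/ml in their drinking water for 20 weeks, so there is no group without the carcinogen. 4NQO (4-nitroquinoline 1-oxide) damages DNA and produces squamous lesions of the oral epithelium, and Aim2 encodes a sensor of cytosolic DNA. The labels give no strain, sex or age, nor whether each library is 1 mouse. The spread behind each p-value is thus that of the libraries and may be technical. Names of the libraries have a common stem in each genotype.

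The cornified envelope is the cross-linked protein shell that replaces the plasma membrane of keratinocytes at the end of their differentiation. Transglutaminases join loricrin (Lor), involucrin (Ivl), the small proline-rich proteins (Sprr) and the late cornified envelope proteins (Lce) into this shell. The S100-fused proteins of the same cluster (Crnn, Flg2, Hrnr, Rptn, Tchh, Tchhl1) pair a calcium-binding S100 domain with long repeats and bind keratin filaments or the envelope. The upper surface of the mouse tongue is a keratinised epithelium with filiform papillae, and Sprr genes are known to respond to injury and stress of epithelia.

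Library depth, computed from the FPKM values (fragments scaled to gene length and to library depth), was 21959204 to 25369400 reads. Aim2 itself was covered by 3, 4 and 10 reads in Aim2 KO replicates 1, 2 and 3, against 14, 25 and 30 reads in the WT replicates (two-sided p = 0.1 by an exact permutation test, which cannot go lower with 3 against 3). The envelope genes took 1.02% to 1.45% of all reads in Aim2 KO and 1.34% to 1.71% in WT. In whole tissue, fewer cornifying cells and less envelope RNA in each cell cannot be told apart. The members lie between positions 92080271 and 93471980, over 1.39 Mb, by the coordinates of the deposited table. The sources used here name no genome build for it. All 45 members are in GENCODE M21 (GRCm38) by gene identifier, 29 of them at identical coordinates.

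Of the 45 genes, 40 had a mean of at least 1 FPKM over the 6 libraries and were tested with all 12144 genes above that level. No member reached this mean through 1 genotype alone. The other 5 were Sprr2a1, Sprr2a2, Sprr4, Lce6a and Flg2, with between 0 and 21 reads in a library. No tested member passed the threshold for a genotype difference (limma, adjusted p under 0.05, adjusted p = 0.99977 for each), and 1 of all genes tested did (0.00823%, and 0% lower). limma's voom on the recovered reads also called 0 members. The log2 difference, Aim2 KO minus WT on the log2(FPKM + 1) scale, which understates changes of low genes, was below 0 for 38 of the 40 members and for 42.8% of all genes tested. Its median was -0.49 over the tested members and 0.02 over all genes tested. It was below the 5th percentile of all genes (-0.25) for 32 of the 40 members, where 5.01% of all genes lie. At an unadjusted p under 0.05, 9 members were lower in Aim2 KO, and 0.576% of all genes tested were. This count varied with single libraries: it was 1 without Aim2 KO replicate 3 (0.634% of all genes) and 2 without WT replicate 1 (0.428%). Leaving out Aim2 KO replicate 1 gave 18 (1.56%), and leaving out Aim2 KO replicate 2 gave 15 (1.18%). With the mean level of skeletal muscle markers as a covariate it was 22 (1.61%). That level, as log2(FPKM + 1), was 7.72 in Aim2 KO replicate 1 and 8.48 to 8.78 in the other libraries. This fit thus overlaps with leaving out that replicate. For 7 members each Aim2 KO library was below each WT library, beside 1.48% of all genes, and for 0 members each was above, beside 4.98% of all genes. With 1 library fewer, groups fail to overlap more often over all genes as well. The 7 became 21 without Aim2 KO replicate 1 (5.11% of all genes), 18 when replicate 2 was left out instead (4.94%) and 9 when replicate 3 was (4.12%). The count was 7 without WT replicate 1 (3.86%), 12 without WT replicate 2 (3.77%) and 15 without WT replicate 3 (5.21%).

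**Figure D1:**
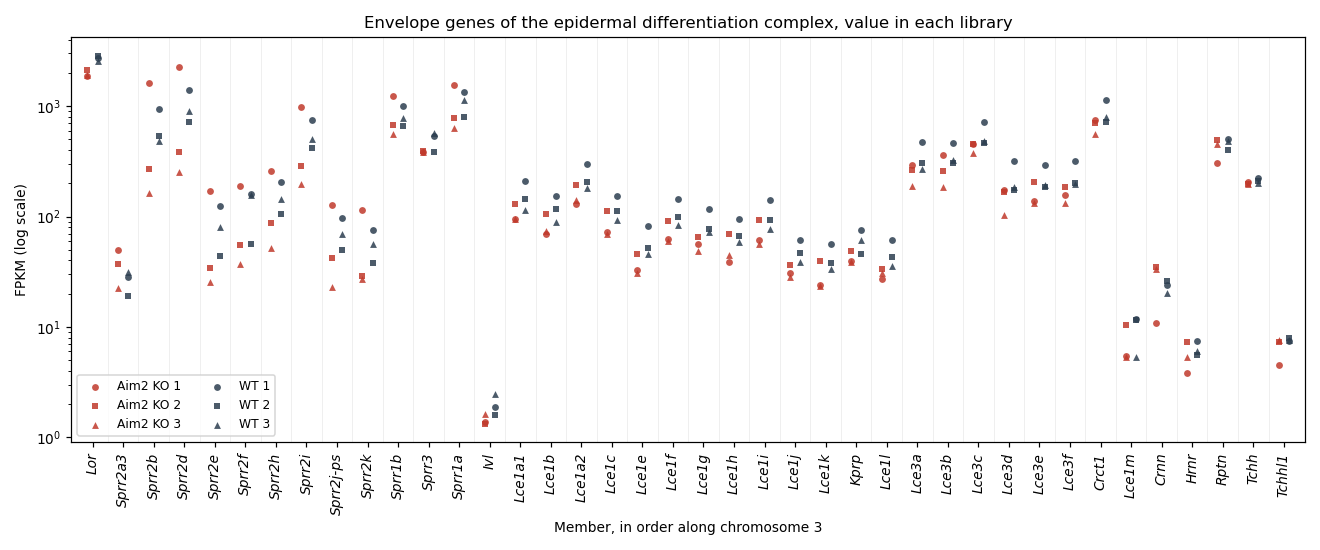
FPKM on a log axis for each tested envelope gene, in order along chromosome 3, with Aim2 KO libraries in red and WT libraries in dark blue and a symbol for each replicate number. The Lor points of Aim2 KO lie below all WT points, while at the Sprr2 genes other than Sprr2a3 Aim2 KO replicate 1 stands above and replicates 2 and 3 stand below WT.

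Loricrin is the main protein of the cornified envelope, and its gene had the highest mean level of all members, 2337 FPKM. Lor (ENSMUSG00000043165; chromosome 3, 92080271 to 92083142, minus strand) had 1856, 2131 and 1915 FPKM in Aim2 KO replicates 1, 2 and 3, against 2707, 2864 and 2547 FPKM in WT replicates 1, 2 and 3. The Aim2 KO libraries all lay below the WT libraries, with a narrow spread in both genotypes. Means were 1967 ± 144 FPKM in Aim2 KO and 2706 ± 159 FPKM in WT (SD, n = 3 each), a log2 difference of -0.46 (SE 0.20, limma adjusted p = 0.99977). With any 1 library left out, the log2 difference of Lor stayed between -0.52 and -0.42, and it was not called.

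Upstream sequences were read from RefSeq promoters (GRCm38.p6), 250 bases before to 50 after the gene's start, which 41 of the 45 members have. Sprr2j-ps, Lce1f, Crct1 and Kprp have no entry. Positions count from a motif's first base to the start. TATAAA, the core of the TATA box, was searched on the gene's strand and is in 8.32% of all 32817 promoters of the table. TGANTCA, the motif that AP-1 factors are known to bind, was searched on both strands and is in 7.81% of them. The Lor promoter, printed because Lor had the highest level of the genes without overlap, has TGANTCA 48 and TATAAA 27 bases before the start (capitals):
Lor (chr3:92083093-92083392, minus strand): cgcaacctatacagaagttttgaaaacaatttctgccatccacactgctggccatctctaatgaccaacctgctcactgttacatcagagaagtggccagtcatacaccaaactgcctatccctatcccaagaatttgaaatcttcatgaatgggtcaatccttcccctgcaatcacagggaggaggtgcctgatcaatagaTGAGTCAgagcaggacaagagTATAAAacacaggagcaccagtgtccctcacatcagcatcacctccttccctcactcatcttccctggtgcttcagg
Over all members, CACCC, a motif of KLF factors, was in 21 of 41 promoters (51.2%) and in 57.5% of all promoters. TGACNNNGC, the core of the element bound by NRF2, was in 7 of 41 (17.1%) and in 12.4% of all promoters. Both were searched on both strands, and these shares describe letters in the windows.

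The other 3 envelope genes outside the Lce and Sprr families were also at a lower mean in Aim2 KO, with overlapping groups. Crct1, a cysteine-rich C-terminal gene between Lce3f and Lce1m, had 742, 696 and 564 FPKM in Aim2 KO replicates 1, 2 and 3, against 1139, 719 and 792 FPKM in WT replicates 1, 2 and 3. Kprp, the keratinocyte proline-rich protein, had 39.2, 48.3 and 38.7 FPKM in Aim2 KO replicates 1, 2 and 3, against 76, 46.2 and 61.1 FPKM in WT replicates 1, 2 and 3. WT replicate 1 was the highest library for both genes. Involucrin, an early scaffold of the envelope, was almost absent: Ivl had 1.38, 1.33 and 1.64 FPKM in Aim2 KO replicates 1, 2 and 3, against 1.87, 1.59 and 2.46 FPKM in WT replicates 1, 2 and 3. Log2 differences were -0.38 for Crct1, -0.51 for Kprp and -0.27 for Ivl.

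The late cornified envelope genes are expressed in the outermost living layers and encode small cysteine-rich and glycine-rich proteins. All 19 tested Lce genes had a lower mean in Aim2 KO than in WT, at 0.606 to 0.771 of the WT mean. Their log2 differences ran from -0.68 (Lce1e) to -0.35 (Lce3c) with a median of -0.54, and none was called. In all 19, WT replicate 1 was the highest library. Aim2 KO replicate 3 was the lowest in 14 and Aim2 KO replicate 1 in 5. Aim2 KO replicate 3 was below all WT libraries in 19, Aim2 KO replicate 1 in 15 and Aim2 KO replicate 2 in 9, counting Lce1m, in which Aim2 KO replicate 3 and WT replicate 3 were both at 5.35 FPKM after rounding. The shares of all genes with a single Aim2 KO library below all WT libraries were not computed, so these counts only describe the Lce genes.

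In 6 Lce genes the 2 genotypes did not overlap: Lce1e, Lce1g, Lce1j, Lce1l, Lce3c and Lce3f. Lce1e had 33.1, 45.4 and 30.5 FPKM in Aim2 KO replicates 1, 2 and 3, against 82.5, 51.5 and 45.7 FPKM in WT replicates 1, 2 and 3. Lce1g had 56.5, 65.9 and 48.9 FPKM in Aim2 KO replicates 1, 2 and 3, against 118, 77.01 and 72.6 FPKM in WT replicates 1, 2 and 3. In both, Aim2 KO replicate 2 came nearest to WT, and WT replicate 1 stood well above the other WT libraries. Lce1j had 30.9, 36.1 and 28.3 FPKM in Aim2 KO replicates 1, 2 and 3, against 60.99, 46.5 and 38.5 FPKM in WT replicates 1, 2 and 3. Lce1l had 27.3, 33.6 and 30.7 FPKM in Aim2 KO replicates 1, 2 and 3, against 61.3, 42.7 and 35.7 FPKM in WT replicates 1, 2 and 3. In these 2 genes the Aim2 KO libraries were closer together than in Lce1e and Lce1g. Lce3c had 456, 453 and 376 FPKM in Aim2 KO replicates 1, 2 and 3, against 718, 467 and 482 FPKM in WT replicates 1, 2 and 3. Lce3f had 157, 185 and 132 FPKM in Aim2 KO replicates 1, 2 and 3, against 319, 202 and 195 FPKM in WT replicates 1, 2 and 3. Lce3c, the Lce gene of highest mean (492 FPKM), had Aim2 KO replicates 1 and 2 just below WT replicate 2. Log2 differences (limma) were -0.68 (SE 0.24) for Lce1e, -0.61 (SE 0.20) for Lce1g and -0.58 (SE 0.18) for Lce1j. They were -0.56 (SE 0.19) for Lce1l, -0.35 (SE 0.20) for Lce3c and -0.57 (SE 0.22) for Lce3f.

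The other 9 Lce1 genes overlapped between genotypes, with Aim2 KO replicate 2 above WT replicate 3 in each of them. Lce1a1 had 94.9, 131 and 95 FPKM in Aim2 KO against 209, 144 and 115 FPKM in WT, each in the order of replicates 1, 2 and 3. Lce1b had 69.2, 106 and 74.5 FPKM in Aim2 KO against 154, 117 and 89.2 FPKM in WT. Lce1a2 had 131, 192 and 142 FPKM in Aim2 KO against 300.3, 207 and 181 FPKM in WT. Lce1a2 was the most abundant Lce1 gene in all 6 libraries, and its deposited row, 92668613 to 92687210, spans Lce1d of GENCODE M21 (92685499 to 92687210). That row, on the minus strand, also spans the row of Lce1c (92679247 to 92680918, plus strand). Any effect of this overlap on their levels was not tested. Lce1c had 71.7, 112 and 69.3 FPKM in Aim2 KO against 153, 112 and 92.4 FPKM in WT. Lce1f had 62.8, 90.5 and 60.1 FPKM in Aim2 KO against 144, 98.9 and 83 FPKM in WT. Lce1h had 38.8, 69.1 and 44.6 FPKM in Aim2 KO against 95.9, 66 and 58.8 FPKM in WT. In Lce1c, Aim2 KO replicate 2 and WT replicate 2 were level after rounding, and in Lce1h Aim2 KO replicate 2 was above WT replicate 2. Lce1i had 61.8, 92.3 and 56.6 FPKM in Aim2 KO against 140.4, 93.4 and 77.8 FPKM in WT. Lce1k had 23.9, 39.8 and 23.6 FPKM in Aim2 KO against 56.8, 37.7 and 33.4 FPKM in WT. Lce1m, at the far end of the cluster beyond Crct1, was the lowest, with 5.41, 10.4 and 5.35 FPKM in Aim2 KO against 11.9, 11.5 and 5.35 FPKM in WT. It was also the Lce gene in which WT replicate 3 was as low as Aim2 KO replicates 1 and 3.

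The Lce3 genes are those known to be induced in injured and inflamed skin. Lce3a had 292, 263 and 188 FPKM in Aim2 KO against 477, 305 and 271 FPKM in WT. Lce3b had 362, 257 and 183 FPKM in Aim2 KO against 464, 307 and 322 FPKM in WT. Lce3d had 176, 167 and 104 FPKM in Aim2 KO against 318, 175 and 185 FPKM in WT. In these 3, Aim2 KO replicate 3 was well below the other 5 libraries. Lce3e had 138, 207 and 132 FPKM in Aim2 KO against 295, 184 and 195 FPKM in WT. Here Aim2 KO replicate 2 exceeded WT replicates 2 and 3. Summed over the family, Lce3 came to 1581, 1533 and 1116 FPKM in Aim2 KO against 2589.9, 1640.1 and 1649.9 FPKM in WT, and Lce1 to 707, 1024 and 709.8 FPKM in Aim2 KO against 1587, 1105 and 929 FPKM in WT. The ratios of group means were 0.719 for Lce3 and 0.674 for Lce1. Without WT replicate 1 the median log2 difference of the 19 genes was -0.32, and without WT replicate 3 it was -0.70.

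The Lce genes are close copies, so reads could be shared between them. In GENCODE M21 transcripts, 9.12% to 27.1% of 50-base windows of the Lce1 genes other than Lce1m, and 12.1% to 49.3% of those of the Lce3 genes, were also present in another gene. Lce1m, Lor, Crct1 and Kprp had no such window. How the authors assigned shared reads is not given in the sources used here. Levels of single Lce genes are uncertain for that reason, and family sums can be affected too.

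The Lce promoters shared other letters. None of the 18 Lce1 and Lce3 promoters holds TGANTCA, and 1 (Lce1m) holds TATAAA. For Lce1a2 the RefSeq start used lies 16895 bases from that of the deposited row. A further motif, ATAAAA, added after these promoters were seen, is on the gene's strand in 17 of the 18, of which 16 have it 40 to 20 bases before the start. Over all promoters 11.1% hold it, and 1.74% hold it in that interval. Its letters can overlap those of TATAAA, so that 1 site counts for both, as in Lce1m. The 60 bases around the start of the 6 Lce genes whose genotypes did not overlap, with ATAAAA in capitals, are
Lce1e (chr3:92709065-92709124, minus strand): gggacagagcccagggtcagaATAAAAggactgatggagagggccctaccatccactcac
Lce1g (chr3:92752329-92752388, minus strand): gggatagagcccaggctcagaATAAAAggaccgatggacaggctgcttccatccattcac
Lce1j (chr3:92790505-92790564, minus strand): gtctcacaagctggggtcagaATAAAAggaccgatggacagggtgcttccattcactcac
Lce1l (chr3:92851277-92851336, minus strand): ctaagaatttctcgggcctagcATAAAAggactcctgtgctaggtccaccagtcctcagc
Lce3c (chr3:92944436-92944495, plus strand): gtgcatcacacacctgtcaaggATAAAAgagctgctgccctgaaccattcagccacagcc
Lce3f (chr3:92992167-92992226, plus strand): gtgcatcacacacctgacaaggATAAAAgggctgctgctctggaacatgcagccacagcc
Compared base by base, Lce3c and Lce3f are identical at 54 of the 60 positions and Lce1e and Lce1g at 51, while Lce1j matches Lce1e at 46 and Lce1g at 47. Lce1l matches Lce1e at 21, Lce1g at 19 and Lce1j at 22 positions, and Lce3c at 27 and Lce3f at 29. No shift was allowed, and ATAAAA lies 28 bases before the start in Lce1l but 29 in Lce1e, Lce1g and Lce1j.

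**Figure D2:**
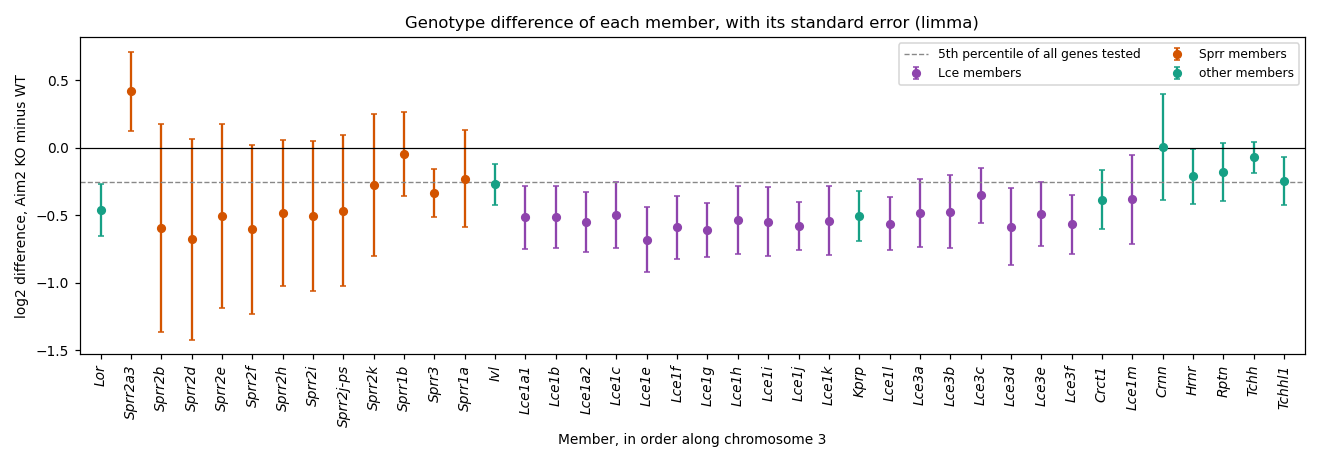
Log2 difference of each tested envelope gene, Aim2 KO minus WT on the log2(FPKM + 1) scale, in order along chromosome 3, with bars of 1 standard error from limma (n = 3 libraries each) and a dashed line at the 5th percentile of all genes tested, -0.25. The 19 Lce points lie between -0.68 and -0.35 with short bars, while the Sprr2 points other than Sprr2a3 lie between -0.68 and -0.27 with longer bars.

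The small proline-rich genes of the Sprr2 group spread widely among the Aim2 KO libraries. Sprr2 proteins are short cross-bridging proteins of the envelope, made in stressed and in normally cornifying epithelia. Their summed level was 5762, 1226 and 797 FPKM in Aim2 KO replicates 1, 2 and 3, against 3805, 1976 and 2417 FPKM in WT replicates 1, 2 and 3. Aim2 KO replicate 1 was the highest of the 6 libraries and Aim2 KO replicate 3 the lowest, a 7.23-fold range, while the ratio of group means was 0.950. In all 9 tested Sprr2 genes Aim2 KO replicate 1 was the highest library. In 8 of the 9, all but Sprr2a3, Aim2 KO replicates 2 and 3 were also both below all WT libraries. Without Aim2 KO replicate 1, 5.11% of all genes tested were lower in this way. Aim2 KO replicate 1 exceeded Aim2 KO replicate 3 by 4.18-fold to 9.92-fold in those 8 genes. Among the WT libraries alone, the highest exceeded the lowest by 1.66-fold to 2.84-fold in the 9 genes.

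Sprr2d, Sprr2b and Sprr2i made up 76.5% to 84.2% of the Sprr2 sum in the 6 libraries. Sprr2d (ENSMUSG00000042212; chromosome 3, 92339140 to 92340873, plus strand) was the most abundant Sprr2 gene in each of them. It had 2259, 386 and 252 FPKM in Aim2 KO replicates 1, 2 and 3, against 1410.3, 711 and 898 FPKM in WT replicates 1, 2 and 3. Sprr2b had 1613, 267 and 163 FPKM in Aim2 KO replicates 1, 2 and 3, against 948, 531 and 483 FPKM in WT replicates 1, 2 and 3. Sprr2i had 979.5, 288 and 195 FPKM in Aim2 KO replicates 1, 2 and 3, against 756, 420.1 and 498 FPKM in WT replicates 1, 2 and 3. All 3 genes had the same order among the Aim2 KO libraries, and in WT all had replicate 1 highest. For Sprr2d the means were 966 ± 1122 FPKM in Aim2 KO and 1006 ± 362 FPKM in WT (SD, n = 3 each), with a log2 difference of -0.68 (SE 0.74, limma adjusted p = 0.99977). For Sprr2b the ratio of means was 1.04 while the log2 difference was -0.60, so these measures differ in sign. Without Aim2 KO replicate 1 the log2 difference was -1.63 for Sprr2d (limma adjusted p = 0.0921) and -1.58 for Sprr2b (limma adjusted p = 0.120), still short of the threshold. Without Aim2 KO replicate 3 the median over the 12 tested Sprr genes was 0.03, against -0.47 with all libraries.

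The less abundant Sprr2 genes had the same pattern at lower levels. Sprr2h had 259.8, 86.6 and 51.5 FPKM in Aim2 KO against 207, 106 and 145 FPKM in WT, in the order of replicates 1, 2 and 3. Sprr2f had 191, 55.6 and 37.2 FPKM in Aim2 KO against 161, 56.6 and 155 FPKM in WT. Sprr2e had 169, 34.2 and 25.8 FPKM in Aim2 KO against 124, 43.8 and 80.8 FPKM in WT. In Sprr2f, Aim2 KO replicate 2 and WT replicate 2 were nearly level. Sprr2j-ps, which the table types as protein-coding in spite of its symbol, had 127, 42.2 and 22.8 FPKM in Aim2 KO against 96.5, 49.6 and 69.2 FPKM in WT. Sprr2k had 113, 29.1 and 27.2 FPKM in Aim2 KO against 75.7, 38.2 and 55.9 FPKM in WT. Sprr2g, left out by its type (polymorphic pseudogene), had 134, 37.2 and 21.5 FPKM in Aim2 KO against 105, 41.8 and 88.4 FPKM in WT. It too was highest in Aim2 KO replicate 1 and lowest in Aim2 KO replicate 3.

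Sprr2a3 stood apart from the other tested Sprr2 genes. It had 49.5, 37.1 and 22.4 FPKM in Aim2 KO replicates 1, 2 and 3, against 28.1, 18.9 and 31.5 FPKM in WT replicates 1, 2 and 3, a log2 difference of 0.42 (SE 0.29), the highest of all members and not called. Its lowest library was WT replicate 2. Of its 50-base transcript windows 61.1% occur in another gene, most in Sprr2a1 and Sprr2a2, of which 96.3% and 96.5% are shared, so its level and the near absence of Sprr2a1 (5 to 21 reads in a library) and Sprr2a2 (0 to 8 reads) are uncertain. The deposited rows of Sprr2a1 (92215835 to 92222485) and Sprr2a2 (92215920 to 92257298) also overlap on the plus strand, which adds to that uncertainty. Of the other Sprr2 genes 0% to 14.1% of windows were shared, with the highest share in Sprr2b.

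The Sprr2 promoters are shown because all 9 tested Sprr2 genes had the same order of libraries in Aim2 KO, replicate 1 highest and replicate 3 lowest. All 7 promoters of the group Sprr2b to Sprr2k with an entry hold TATAAA 29 bases before the start. All 7 also hold TGANTCA 193 to 198 bases before the start, and Sprr2k has a second copy 182 bases before it. Over all members TATAAA is in 16 of 41 promoters (39%) and TGANTCA in 15 of 41 (36.6%). TGANTCA is also in 4 of the 6 S100-fused promoters. Crnn, with a different order of the Aim2 KO libraries, holds TGANTCA 96 and TATAAA 29 bases before its start. Sprr2a3, 1 of the 9, holds neither. A link between motifs and library order was not tested. The whole Sprr2d promoter, with TGANTCA and TATAAA in capitals, is
Sprr2d (chr3:92338890-92339189, plus strand): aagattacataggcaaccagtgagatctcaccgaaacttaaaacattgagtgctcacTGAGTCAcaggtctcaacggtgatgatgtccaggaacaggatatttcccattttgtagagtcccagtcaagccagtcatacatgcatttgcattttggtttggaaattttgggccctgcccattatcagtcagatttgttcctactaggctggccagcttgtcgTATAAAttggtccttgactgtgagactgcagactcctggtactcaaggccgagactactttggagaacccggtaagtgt
and the windows of 35 bases around TGANTCA (capitals) in the 6 other genes are
Sprr2b (chr3:92316500-92316534, plus strand): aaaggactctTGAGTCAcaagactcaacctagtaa
Sprr2e (chr3:92351938-92351972, plus strand): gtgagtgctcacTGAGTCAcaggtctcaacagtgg
Sprr2f (chr3:92364982-92365016, plus strand): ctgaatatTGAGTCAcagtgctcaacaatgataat
Sprr2h (chr3:92385480-92385514, plus strand): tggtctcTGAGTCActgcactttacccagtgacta
Sprr2i (chr3:92407786-92407820, plus strand): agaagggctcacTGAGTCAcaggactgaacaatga
Sprr2k (chr3:92432377-92432411, plus strand): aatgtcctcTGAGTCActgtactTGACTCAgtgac

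Sprr1 and Sprr3 lie beside Sprr2 and differed from each other. Sprr1a, known as a gene induced early in stressed and differentiating squamous cells, had 1559.6, 773 and 630.5 FPKM in Aim2 KO replicates 1, 2 and 3, against 1342, 797 and 1143 FPKM in WT replicates 1, 2 and 3. Its partner Sprr1b had 1224, 673 and 562 FPKM in Aim2 KO replicates 1, 2 and 3, against 998, 656 and 776 FPKM in WT replicates 1, 2 and 3. Both had the Sprr2 order, Aim2 KO replicate 1 highest and Aim2 KO replicate 3 lowest, over a smaller range of 2.18-fold to 2.47-fold. For Sprr1b the log2 difference was -0.04 with a ratio of means of 1.01, and for Sprr1a it was -0.23 with a ratio of 0.903. Sprr3, known as an envelope protein of the internal squamous epithelia of mouth and oesophagus, lies between Sprr1b and Sprr1a. It had 383, 391 and 385 FPKM in Aim2 KO replicates 1, 2 and 3, against 534, 383 and 569 FPKM in WT replicates 1, 2 and 3. Its 3 Aim2 KO libraries were nearly equal, at 386 ± 4.14 FPKM, while the WT libraries were at 495 ± 98.98 FPKM (SD, n = 3 each). WT replicates 1 and 3 lay above all Aim2 KO libraries, and WT replicate 2 was level with Aim2 KO replicate 1 after rounding. Sprr4 had 0 to 4 reads in a library.

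Among the Sprr genes outside that group the motifs varied with the gene. Sprr1b has TATAAA 30 and TGANTCA 111 bases before its start, and Sprr1a has TATAAA 43 and TGANTCA 146 and 116 bases before it. Sprr3 has TATAAA 33 bases before the start and no TGANTCA in the window. The promoters of Sprr2a1, Sprr2a2 and Sprr2a3 hold neither. The RefSeq start lies 34727 bases from that of the deposited row for Sprr2a2 and 3265 bases for Sprr2a3. For Flg2, among the S100-fused genes, that distance is 2937 bases.

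**Figure D3:**
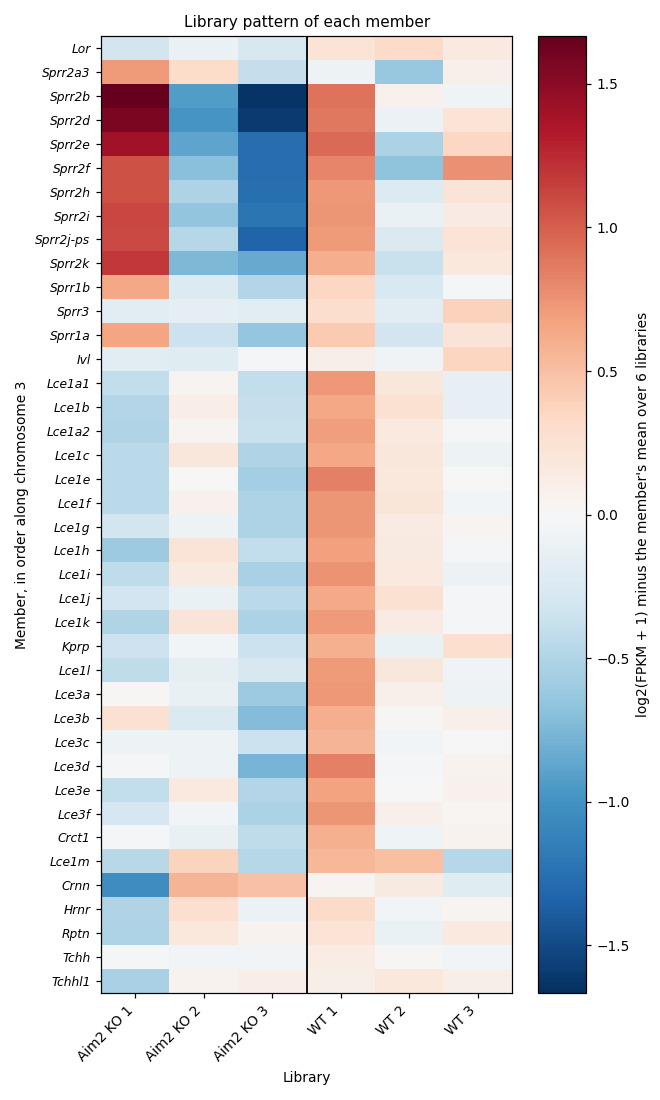
Each row is a tested envelope gene in order along chromosome 3, each column a library (Aim2 KO left, WT right), and the colour is log2(FPKM + 1) minus the gene's mean over the 6 libraries. The Sprr2 rows other than Sprr2a3 are red in Aim2 KO replicate 1 and blue in Aim2 KO replicates 2 and 3, and the Lce rows are red in WT replicate 1.

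The balance between the families varied among the Aim2 KO libraries. The summed Sprr2 level over the summed Lce level was 2.52, 0.479 and 0.436 in Aim2 KO replicates 1, 2 and 3, against 0.911, 0.720 and 0.937 in WT replicates 1, 2 and 3. All WT libraries lay below Aim2 KO replicate 1 and above Aim2 KO replicates 2 and 3. The summed Lce level over Lor was 1.23, 1.2 and 0.953 in Aim2 KO, against 1.54, 0.959 and 1.01 in WT. Those values overlapped between genotypes.

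**Figure D4:**
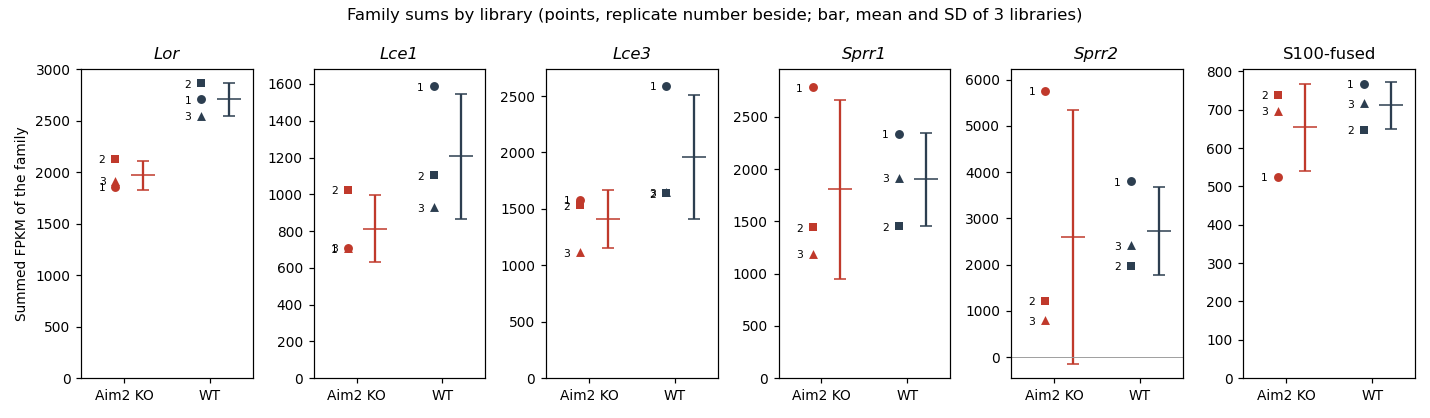
Summed FPKM by family in each library on axes that include 0, with the replicate number beside each point and the mean and SD of 3 libraries as a bar, Aim2 KO left of WT in each panel. The Lor groups do not overlap, while the Sprr2 points of Aim2 KO run from 797 to 5762 and their SD bar reaches below 0.

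The 5 tested S100-fused genes had log2 differences of -0.24 to 0.01, all nearer to 0 than that of any tested Lce gene. Repetin (Rptn), an envelope precursor of the tongue and other stratified epithelia, had 303, 491 and 452 FPKM in Aim2 KO replicates 1, 2 and 3, against 506, 399.5 and 484 FPKM in WT replicates 1, 2 and 3. Trichohyalin (Tchh), which cross-links keratin filaments in papillae and hair follicles, had 203, 199 and 199 FPKM in Aim2 KO replicates 1, 2 and 3, against 223, 209 and 199.7 FPKM in WT replicates 1, 2 and 3. Tchh was the steadiest of all tested members, with a 1.12-fold range over the 6 libraries. Cornulin (Crnn), a marker of differentiated oral squamous epithelium, had 10.9, 35 and 33.1 FPKM in Aim2 KO replicates 1, 2 and 3, against 24.2, 25.99 and 20.2 FPKM in WT replicates 1, 2 and 3. Aim2 KO replicate 1 was the lowest library and Aim2 KO replicates 2 and 3 the highest, an order opposite to that of Sprr2. Hornerin (Hrnr), a filaggrin-like protein, had 3.82, 7.29 and 5.34 FPKM in Aim2 KO against 7.46, 5.56 and 6.05 FPKM in WT. Tchhl1 had 4.51, 7.36 and 7.605 FPKM in Aim2 KO against 7.52, 7.996 and 7.57 FPKM in WT. Aim2 KO replicate 1 was the lowest library in 4 of these 5 genes, Tchh being the exception. Without Aim2 KO replicate 1 the log2 difference of Crnn was 0.53 (limma adjusted p = 0.228). Flg2 had at most 1 read in a library. Filaggrin (Flg), typed as a processed transcript and so left out, had 2.59, 4.32 and 3.42 FPKM in Aim2 KO against 3.23, 4.18 and 3.702 FPKM in WT.

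Other genes of cornification had medians nearer to 0 than the Lce genes. Of the 15 cross-linking and plaque genes 5 were higher and 10 lower in Aim2 KO by log2 difference, with a median of -0.07 and none called. Tgm1, the main keratinocyte transglutaminase, had 287, 194 and 176 FPKM in Aim2 KO against 269, 179 and 248 FPKM in WT, in the order of replicates 1, 2 and 3. Tgm1 thus had Aim2 KO replicate 1 highest and replicate 3 lowest. Stfa1, a stefin, had a log2 difference of -0.42. Of the 16 genes that process the cornified layer 4 were higher and 12 lower, with a median of -0.10 and none called. Klk5, a kallikrein protease of desquamation, had 5.3, 3.23 and 4.59 FPKM in Aim2 KO against 6.21, 5.69 and 5.73 FPKM in WT, groups that did not overlap. Of 18 transcription factors of the programme 10 were higher and 8 lower, with a median of 0.02 and none called. The largest departure by p among them was Hopx, at -0.27.

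The suprabasal keratins pair with the envelope in differentiating cells. Of the 10 tested 1 was higher (Krt24) and 9 lower, with a median of -0.08 and none called. Krt10, the keratin of cornifying epidermis-type cells, had 272, 166 and 197 FPKM in Aim2 KO replicates 1, 2 and 3, against 310.5, 319.8 and 306 FPKM in WT replicates 1, 2 and 3. Its groups did not overlap, with a log2 difference of -0.59 (SE 0.19, limma adjusted p = 0.99977). Its partner Krt1 had 348, 89.95 and 64.2 FPKM in Aim2 KO replicates 1, 2 and 3, against 221, 252 and 209.7 FPKM in WT replicates 1, 2 and 3. Krt1 was highest in Aim2 KO replicate 1 and lowest in Aim2 KO replicates 2 and 3, the order of the Sprr2 genes.

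Other cell types of the tongue varied between the same libraries. The 12 skeletal muscle markers, of which Tnnc2 was at 0 in at least 1 library, summed to 8280, 16197 and 15175 FPKM in Aim2 KO replicates 1, 2 and 3, against 13977, 16354 and 14041 FPKM in WT replicates 1, 2 and 3, with Aim2 KO replicate 1 the lowest. Of the 11 muscle markers tested 1 was higher and 10 lower in Aim2 KO, with a median log2 difference of -0.21 and none called. In 1 of them, Myh1, the groups did not overlap, at a log2 difference of -0.49. The 8 basal epithelium markers summed to 11111, 5483 and 7268 FPKM in Aim2 KO, against 8063, 6555 and 8125 FPKM in WT. The highest was Aim2 KO replicate 1 and the lowest Aim2 KO replicate 2. The 6 fibroblast markers summed to 115, 273 and 253 FPKM in Aim2 KO, against 151, 189 and 178 FPKM in WT. The 8 leukocyte markers summed to 59.2, 64.5 and 92.2 FPKM in Aim2 KO, against 33.1, 37.1 and 32.4 FPKM in WT, with each gene higher in each Aim2 KO library than in any WT library. Of all genes tested 4.98% were higher in this way, and no leukocyte marker was called (lowest limma adjusted p = 0.504). The part of these cell types in the Lor, Lce and Sprr2 values was not tested beyond a fit with a covariate. With the skeletal muscle level as a covariate no member was called (lowest limma adjusted p = 0.239, Sprr2d), and with the basal epithelium level none was (lowest 0.942). The muscle covariate moved the median log2 difference of the 12 Sprr genes to -0.83, against -0.47 without it, with Sprr2d at -1.20 and Sprr2b at -1.13. It moved the median of the 9 genes outside Lce and Sprr to -0.13, against -0.24 without it. For the 19 Lce genes the median was -0.51 with it, and Lor was at -0.43. The muscle level mainly set Aim2 KO replicate 1 apart from the other libraries. This fit thus overlaps with leaving that library out, where Sprr2d was at -1.63.

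Markers of the filiform papilla were highest in the same library as the Lce genes. The 10 genes of that list, hair-type keratins and Lef1, summed to 781, 652 and 689 FPKM in Aim2 KO replicates 1, 2 and 3, against 981, 716 and 834 FPKM in WT replicates 1, 2 and 3. Of the 10 genes 1 was higher and 9 lower in Aim2 KO, with a median log2 difference of -0.28 and none called. Krt81 had 23.96, 27.8 and 26.1 FPKM in Aim2 KO against 54.02, 29.3 and 34.96 FPKM in WT, and its groups did not overlap. The part of papilla content in the Lce values was not tested. No gene of the hair follicle list reached a mean of 1 FPKM, and 5 of its 6 genes were at 0 in at least 1 library. The 6 tested salivary gland markers divided into 4 higher and 2 lower, with Prol1 at 0 in all 6 libraries and Smr3a at 0 in at least 1.

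**Figure D5:**
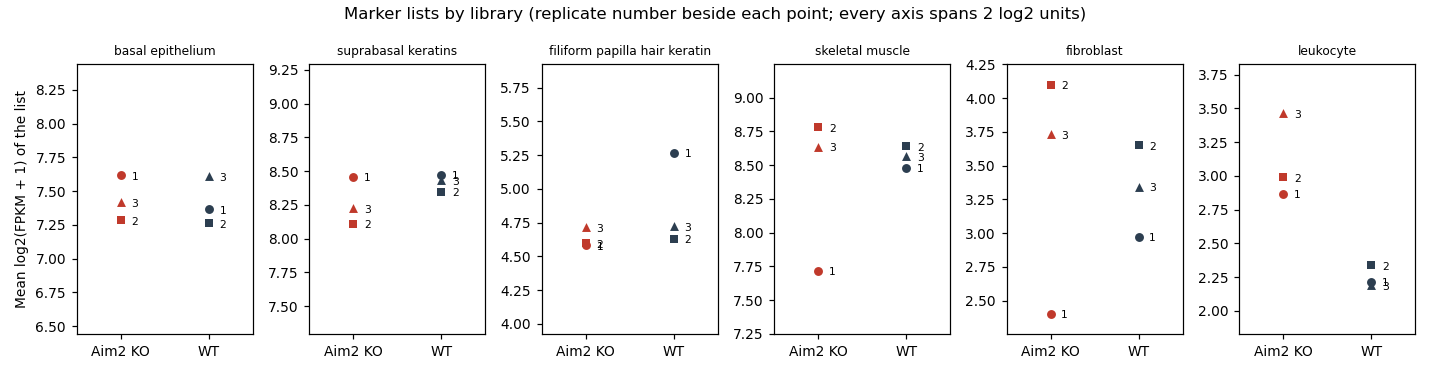
Mean log2(FPKM + 1) of 6 marker lists in each library, Aim2 KO left of WT, with the replicate number beside each point and every axis spanning 2 log2 units. Aim2 KO replicate 1 is lowest for skeletal muscle and fibroblast, WT replicate 1 is highest for the filiform papilla list, and all Aim2 KO points lie above WT for leukocyte.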

How the data were processed

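The deposited table gives FPKM for 35275 genes in 6 libraries, with gene lengths. The labels and file name no aligner, counter, genome build or handling of shared reads. FPKM times gene length was a whole multiple, within 0.01, of 1 step per library in 100% of values above 0. The step was fitted from the smallest such value and assumed to be 1 read, which gave the library totals. Genotype was tested with limma 3.58.1 in R 4.3.3, with a trend of the variance on intensity, on log2(FPKM + 1). The 12144 genes averaging 1 FPKM or more were tested, p was adjusted over all of them (Benjamini-Hochberg, two-sided), and an adjusted p under 0.05 was called. The fit was checked on simulated data with planted changes larger than the difference of any member, so that check does not bear on its power for these members. Members and gene lists were chosen with earlier results of these data known. All members above 1 FPKM are named, with up to 4 genes of each other list by smallest p; Tgm1 and the genes left out by type were named after their values were seen. Alternatives were pseudocounts of 0.1 and 0.5, no filter, a filter at 0.1 FPKM, median-of-ratios, TPM and quantile scaling, the replicate number as a block, muscle or basal covariates, no trend, voom on recovered reads, and leaving out each library. Exact tests used scipy 1.17.1.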

Additional observations from a re-analysis of the deposited data

How the results depend on the processing

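Over the 12 other settings and the 6 fits without 1 library, 0 members were called. One gene of the whole table was called higher with all libraries. This became 0 with no filter, with a filter at 0.1 FPKM, in TPM, with the replicate block and with the basal epithelium covariate, and 3 higher and 1 lower with the skeletal muscle covariate. voom on the recovered reads called 1 higher and 0 lower. Without 1 library it was 0 to 12 higher and 0 to 2 lower. The replicate numbers share no stated origin: deviations of same-numbered libraries correlated at 0.35, 0.46 and 0.03, and Aim2 KO replicate 3 correlated better with WT replicate 2 (0.21), so no pairing was used. The log2 difference of Crnn, 0.01, was -0.0026 with a pseudocount of 0.1 and -0.0303 with median-of-ratios scaling. The cause was not tested. The members without overlap, 7 as reported (1.48% of all genes), were 9 with median-of-ratios scaling (2.5% of all genes), 9 in TPM (1.3%) and 9 with quantile normalization (2.29%). Without 1 library they were 7 to 21, beside 3.77% to 5.21% of all genes.

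Without 1 library, the median log2 difference ran from -0.59 to -0.28 over all tested members, -0.70 to -0.32 for Lce, -1.13 to 0.0332 for Sprr and -0.34 to -0.0815 for the others. The ratio of summed FPKM ran from 0.587 to 0.800 for Lce1, 0.665 to 0.857 for Lce3, 0.693 to 1.11 for Sprr1 and 0.370 to 1.28 for Sprr2. Without 1 library the sign of the log2 difference changed in 9 members: Crnn (-0.27 to 0.53), Rptn (-0.31 to 0.0326), Sprr1a (-0.61 to 0.0385), Sprr1b (-0.38 to 0.19), Sprr2b (-1.58 to 0.0720), Sprr2e (-1.33 to 0.0069), Sprr2h (-1.13 to 0.0279), Sprr2j-ps (-1.13 to 0.0832) and Sprr2k (-0.93 to 0.0804). The log2 differences of the 19 Lce genes and of Lor were below 0 in all 18 alternatives. So were those of Kprp, Crct1, Ivl, Sprr3, Hrnr, Tchh, Tchhl1, Sprr2d, Sprr2f and Sprr2i. All these alternatives draw on the same libraries. With 3 libraries a genotype, adjusted p values rest on the spread of these libraries, and no batch is given in the labels.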
